A study of Mus musculus with 12 samples.

Results

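Cytosolic ribosomal proteins form the protein shell of the ribosome, and their genes were followed here across 12 RNA-seq libraries of mouse alveolar macrophages, which live in the air spaces of the lung and were taken by lavage. The members were the genes whose symbol starts with Rpl or Rps and a digit, together with Rplp0, Rplp1, Rplp2 and Rpsa, without pseudogenes and without the S6 kinase genes. This rule gave 84 of the 10631 genes in the authors' normalised table, 51 named for the large and 33 for the small subunit. All 84 passed the filter on low counts and were among the 12748 genes tested. A further pair of matching names stood only in the raw counts. Rps27 averaged 1.29 CPM (counts scaled to a fixed library size), and Rpl10l, a testis copy of Rpl10, had 0 counts in every library.

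Most of these proteins are present in equal number in each ribosome, and cells make them together. Their messages belong to the 5′-terminal oligopyrimidine (TOP) class, which begins with a C and a run of C and T letters and is placed on or off ribosomes by the mTORC1 kinase through LARP1. Ribosomal protein RNA is abundant in growing and dividing cells, which must make new ribosomes. The symbol rule also took in genes that are not core subunits. Rps19bp1 encodes a nucleolar partner of RPS19. Rpl22l1, Rps27l, Rpl39l, Rpl36al and Rpl3l encode paralogs that can stand in for their core partners, and Rpl7l1 resembles Rpl7. Rps4y2 (a synonym of Rps4l in RefSeq) is counted with the paralogs by name. No protein-coding entry was found for it in the GENCODE annotation used for coding lengths.

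There were 6 groups of 2 libraries. Fresh lavage cells came from wild-type (WT) mice and from vitamin D receptor (VDR) knockout (KO) mice, each at 4 and at 10 weeks of age. WT cells were also kept for 24 h in complete RPMI1640 medium without or with 50 nM vitamin D3; the age of the mice that gave the cultured cells is not given in the labels. The labels name neither the knockout allele nor the sex of the mice, and do not state that the replicates are different mice. The p-values below therefore measure only how far these libraries differ. Sex markers, given below, show a male and a female library in both 10-week groups, so those replicates are not from the same mouse. In the other groups the spread between replicates may be technical. At 10 weeks the description codes of KO replicate 1 and WT replicate 2 name the other genotype, against the source names and genotype labels that were used.

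Total counts were between 10409572 and 23233674 per library, so counting error was small for nearly all members. Vdr RNA was lower in both 4-week libraries labelled KO (45.9 and 31.2 CPM) than in WT (56.5 and 57.7 CPM). At 10 weeks it was 84.2 and 45.0 CPM in the libraries labelled KO, replicates 1 and 2, and 79.6 and 127 CPM in WT. The Vdr level of KO replicate 1 thus lay between those of the WT libraries and went against its label, and Vdr RNA was present in every library labelled KO. Replicate 2 of both genotypes at 10 weeks was female by Xist (869 and 837 CPM), and all other libraries held Ddx3y at 62.7 CPM or more with Xist under 1 CPM. Library titles fell into a run beginning with 10 (4 libraries: replicate 1 of both 10-week groups and of both cultures) and a run beginning with 58 (8 libraries, including all 4-week cells). The 22 alveolar macrophage markers in the table summed to 39019 CPM or more in every library, with Chi3l3 never below 5044 CPM and Itgax never below 1020 CPM. Some of them were nearly absent from culture: Car4 averaged 610 CPM in WT at 4 weeks and 0.814 CPM in untreated culture, Fabp1 191 and 3.05 CPM, and Cidec 424 and 22.7 CPM.

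The members' share of all counts was highest in young mice. It was 3.27% and 3.48% in WT at 4 weeks and 3.06% and 3.09% in KO at 4 weeks. At 10 weeks it was 2.49% and 2.89% in WT and 2.46% and 2.58% in KO. Every 4-week library lay above every 10-week library. In culture the share was 2.12% and 2.57% without vitamin D3 and 2.67% and 2.51% with it, so that the untreated replicates differed more from each other than the group means did (2.35% ± 0.317 and 2.59% ± 0.117, SD, n = 2). The exact 95% binomial intervals, which cover counting error only, were narrow: 2.117% to 2.130% for the lowest library and 3.474% to 3.490% for the highest. The shares are given as a description, with no test. The balance of the subunits moved little, with 1.41 to 1.49 counts on large-subunit genes for each count on small-subunit genes.

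**Figure D1:**
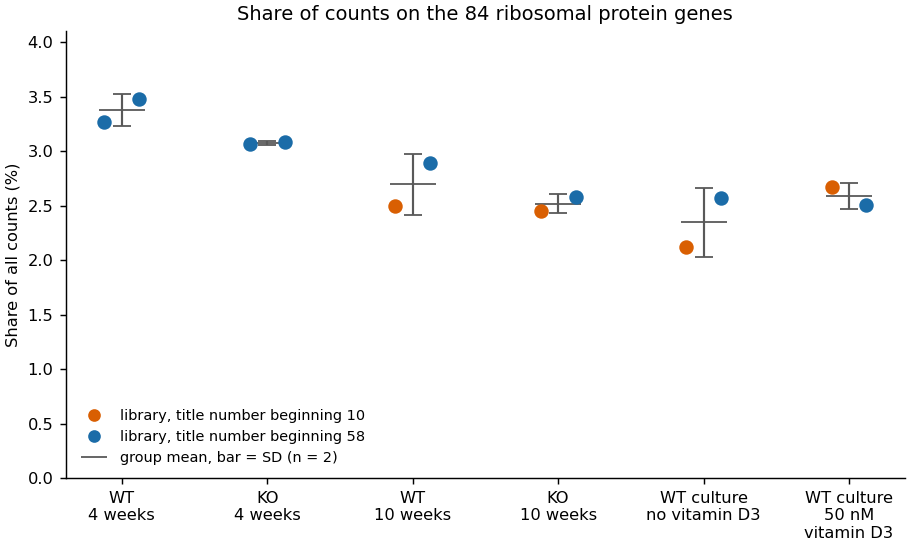
Share of all counts (%, vertical axis) that fell on the 84 ribosomal protein genes in each of the 12 libraries, by group, with the group mean and SD (n = 2) and colours for the run of library titles. All 4-week libraries lie between 3.06% and 3.48%, above all 10-week libraries at 2.46% to 2.89%, and the untreated culture has the widest gap between replicates.

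Levels differed widely between members. By CPM averaged over all libraries, the highest were Rplp0 (1008 CPM), Rps2 (901), Rpl10 (898), Rpsa (770.01), Rpl4 (693) and Rplp1 (630). Rplp0, Rplp1 and Rplp2 form the acidic stalk that recruits elongation factors to the ribosome. Rps2 lies at the mRNA entry channel, Rpl10 is among the last to join the large subunit, and Rpsa was first described as a laminin receptor. Per kilobase of coding sequence the order changed: Rpl41, whose coding sequence is 75 bases, stood first at 5143 CPM per coding kilobase, followed by Rplp1 (1841), Rpl10 (1398.2), Rps29 (1398.1), Rpl39 (1219) and Rplp2 (1182). Leaving out paralogs, Rps19bp1 and 3 low members, the 73 remaining genes spanned 276 to 5143 CPM per coding kilobase, with a median of 675.

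The 3 low members were Rpl26 (mean 8.91 CPM), Rpl30 (11.0 CPM) and Rpl34 (3.92 CPM), where the median over all members was 307 CPM. In the same table the pseudogene row Rpl34-ps1 averaged 144.67 to 209.24 CPM in single libraries. Ribosomal protein genes have many near-identical processed copies in the mouse genome, and the sources used here do not give how the authors counted reads that fit several copies, so the levels of these 3 genes and of any member with such copies are uncertain. Rpl26 also varied most between replicates, with a pooled SD within groups of 0.775 on the log2 scale, followed by Rpl30 (0.596) and Rpl39l (0.562). The median member had an SD of 0.122.

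In CPM per coding kilobase the paralogs differed in how they stood to their core partners. Rpl22l1 averaged 111 against 395 for Rpl22, a large-subunit protein that also binds messages. Rpl3l, known from heart and skeletal muscle, averaged 1.90 against 475 for Rpl3. Rpl39l, known from testis, averaged 12.9 against 1219 for Rpl39. Rpl7l1 was at 132 against 562 for Rpl7, and Rpl36al, at 296, was the closest below its partner Rpl36a (384). Rps27l stood above its partner, at 196 against 5.14 for Rps27, whose low level is uncertain in the same way as those of Rpl26, Rpl30 and Rpl34. Rps27a, a fusion of ubiquitin and a ribosomal protein, stood at 626, and Rps6, the substrate of the S6 kinases, at 598.

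The sequence around the start of these genes is shown because the TOP run defines the class that the members belong to. RefSeq promoters (GRCm38.p6, another build than the mm9 of the counts) were matched by symbol for 63 of the 84 members. Each window below holds 25 bases before and 15 bases after the annotated start, 5′ to 3′ on the gene's strand, with the longest run of C and T in capitals. The 8 genes are 4 whose level fell from 4 to 10 weeks in KO or in culture against 4 weeks (Rps9, Rps18, Rps15a, Rps6), 3 that rose in culture against 10 weeks (Rpl38, Rpl35, Rpl22l1), and Rps19bp1, which is no ribosomal protein. They were chosen after their values were seen.
Rps9 (chr7:3704016-3704055, forward strand): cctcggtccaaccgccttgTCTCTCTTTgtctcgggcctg
Rps18 (chr17:33955651-33955690, reverse strand): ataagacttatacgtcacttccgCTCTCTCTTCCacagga
Rps15a (chr7:118116133-118116172, reverse strand): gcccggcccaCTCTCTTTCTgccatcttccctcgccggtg
Rps6 (chr4:86857353-86857392, reverse strand): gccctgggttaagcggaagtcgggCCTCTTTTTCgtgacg
Rpl38 (chr11:114668555-114668594, forward strand): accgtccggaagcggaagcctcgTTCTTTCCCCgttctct
Rpl35 (chr2:39005117-39005156, reverse strand): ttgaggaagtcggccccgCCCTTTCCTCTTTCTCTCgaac
Rpl22l1 (chr3:28805483-28805522, forward strand): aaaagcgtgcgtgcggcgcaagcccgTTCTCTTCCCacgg
Rps19bp1 (chr15:80264292-80264331, reverse strand): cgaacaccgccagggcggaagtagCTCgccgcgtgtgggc
The windows lie on either strand, and in Rps19bp1 the longest run was only 3 letters. This does not set it apart, as Rpl10, Rpl23, Rpl24 and Rps3 also had a longest run of 3. The other windows printed have runs of 9 letters or more. They are thus longer than the median of 7 over the 63 matched members, where all genes had a median of 5. A run of at least 8 letters C or T within 20 bases of the start was found in 46.0% of the matched members and in 18.4% of all 27011 genes in the table. A run of at least 10 was found in 36.5% against 8.6%. In the whole window of 300 bases on both strands, CCGGAAG, a core letter pattern of ETS family sites, was in 41.3% of members against 9.93% of genes. TATAAA was in 11.1% against 15.7%. These are matches of letters in the annotated windows and not measured sites, and the annotated starts need not be the starts used in these cells.

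From 4 to 10 weeks of age, levels were lower for nearly all members in both genotypes. In WT, 82 of 84 fitted changes were negative, with a median log2 fold change of -0.34 (0.790-fold), where the median of all tested genes was -0.003. In KO, 83 of 84 were negative with a median of -0.28 (0.824-fold), where the median of all genes was 0.01. Of the 84 members, 81 were negative in both genotypes, which share no library in this comparison. The 4-week libraries lay above the 10-week libraries without overlap for 80 members in WT, where 26.8% of all genes did so, and for 79 in KO, where 27.9% of all genes did.

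By the adjusted test (edgeR quasi-likelihood F test, Benjamini-Hochberg over all genes) 12 members fell with age in KO, where 4.83% of all genes were called lower, and 0 rose, where 4.89% were called higher. In WT, 0 of 84 passed, where 2.11% of all genes were called in either direction. At an unadjusted p under 0.05 there were 67 members in WT and 47 in KO, where 2367 and 3265 of all 12748 genes were. In WT the DESeq2 Wald test called 21 members, and the share of all genes that it called is not given here. The difference between the genotypes in the age change was itself tested by the interaction, which called 0 of 84 members (2 at an unadjusted p under 0.05, and 0.188% of all genes were called), so the counts of 12 and 0 do not show that the genotypes differ. Of all 12748 genes, 1103 had an unadjusted p under 0.05 for the interaction. The 12 calls were not stable: without KO replicate 1 or 2 at 4 weeks or KO replicate 1 at 10 weeks there were 0, and without KO replicate 2 at 10 weeks there was 1, Rps19bp1. With the 10-week libraries in label conflict exchanged there were 21 calls in WT and 2 in KO, and the median change was -0.45 and -0.18.

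Of the 12 members that fell in KO, 10 were named for the small subunit and 2 for the large one. Rps19, whose human counterpart is mutated in Diamond-Blackfan anaemia, stood at 314 and 310 CPM at 4 weeks and at 200.3 and 209 CPM at 10 weeks in KO. Its libraries did not overlap, and it fell by 0.61 ± 0.14 (log2, SE; adjusted p = 0.0232). In WT the same gene was at 329 and 326 CPM at 4 weeks and 196 and 249 CPM at 10 weeks. It had the smallest p of the members in WT, with a log2 fold change of -0.56 ± 0.14 and an adjusted p of 0.0691.

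Rps19bp1 had the largest called change in KO, from 18.0 and 17.0 CPM to 9.996 and 11.0 CPM (log2 fold change -0.74 ± 0.15, adjusted p = 0.0127). Rpl22l1 moved from 40.3 and 44.1 CPM to 29.4 and 26.2 CPM, a fall by 0.60 on the log2 scale (adjusted p = 0.0273). Both genes also separated the ages without overlap in WT, where neither passed the test (-0.41 and -0.44, adjusted p = 0.183 and 0.136). Rpl22, the core partner of Rpl22l1, changed by -0.27 in KO and -0.17 in WT and passed in neither.

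The other members called in KO were close to each other in size. Rps18, a protein of the small subunit's head, fell by 0.50, Rps27l by 0.48 and Rps2 by 0.47. Rpsa, from 839 and 880 CPM to 622 and 635 CPM, fell by 0.45 ± 0.10 (adjusted p = 0.0195). Rps15a fell by 0.45. The 12 all had negative fitted changes in WT, where each had an unadjusted p under 0.05. Members of the acidic stalk did not pass in either genotype. Rplp1 was at 776 and 785 CPM at 4 weeks and 511 and 600 CPM at 10 weeks in WT (log2 fold change -0.49, adjusted p = 0.0826), and Rplp0 changed by -0.32 in WT and -0.25 in KO. Rps6 changed by -0.23 and -0.33.

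**Figure D2:**
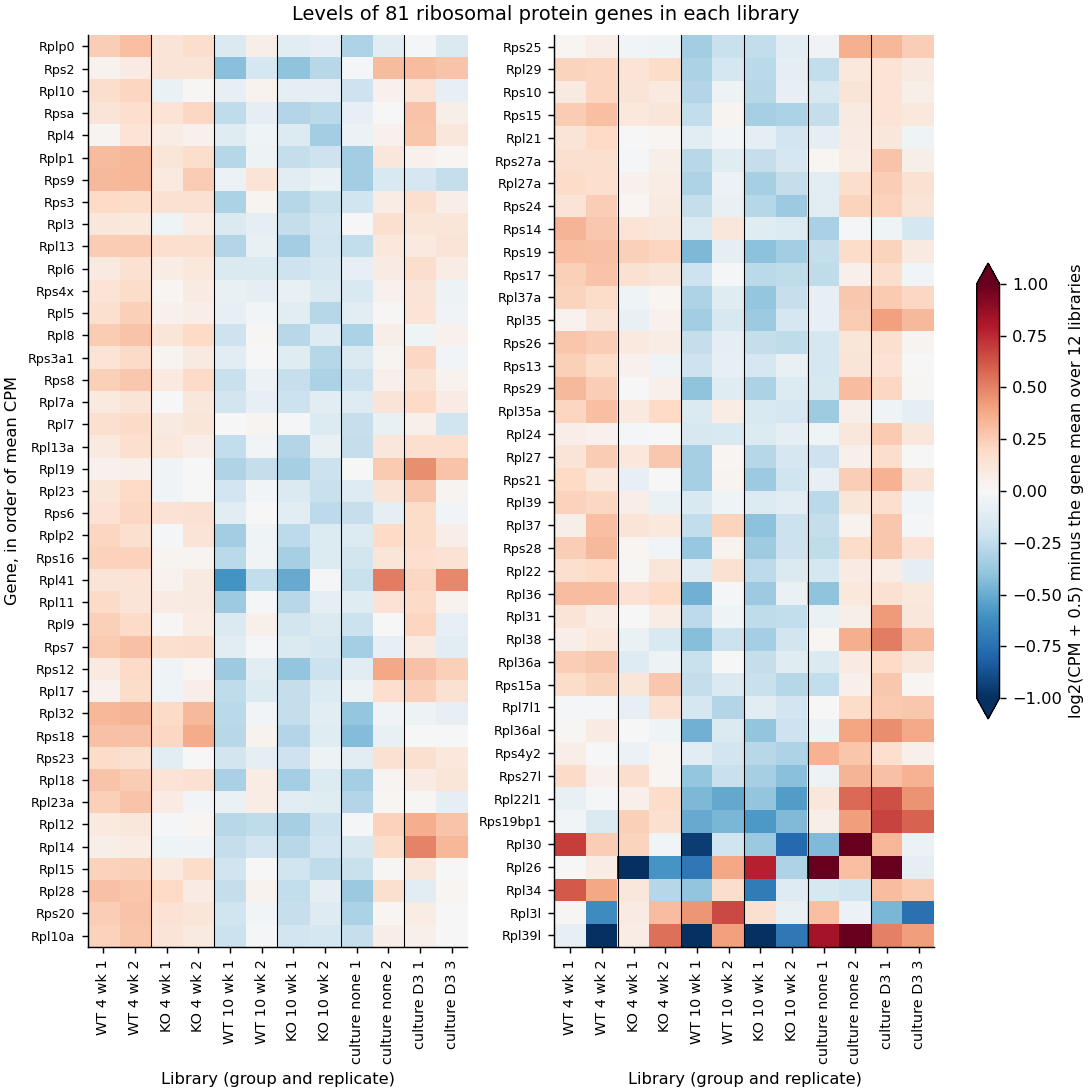
Level of 81 of the 84 members (rows, in order of mean CPM from the top left) in each of the 12 libraries (columns), as log2(CPM + 0.5) minus the gene's mean over all libraries, with red for higher and blue for lower. Most rows are red in the 4-week libraries and blue in the 10-week libraries, and the rows with the largest swings at the bottom right are the low genes Rpl30, Rpl26, Rpl34, Rpl3l and Rpl39l.

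The age difference held in sign within a run of titles and within a sex. The 10-week replicates 2 share the 58 run with the 4-week libraries but were female, and the median member difference from each 4-week library of the same genotype was -0.23 and -0.27 in WT and -0.23 and -0.26 in KO. The 10-week replicates 1 were male like the 4-week cells but belong to the 10 run. Fitted without replicates 2, the median was -0.44 in WT and -0.33 in KO. With the run of titles as a term in the fit it was -0.28 in WT and -0.23 in KO. No pair of libraries matched in both run and sex across ages.

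Across members the age changes in WT and KO went together in rank, with r = 0.47 and Spearman's rho = 0.53 over 79 members, leaving out 5 with a mean under 15 CPM. Over all 84, r was 0.02 and rho was 0.52. The 79 points share their libraries and each genotype's own fit, so this is a description of genes and not of independent replicates. The change in WT was larger for members with shorter coding sequences (r = 0.53, rho = 0.49, 78 members with a length), and that in KO was not related to length (r = 0.04, rho = 0.07).

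**Figure D3:**
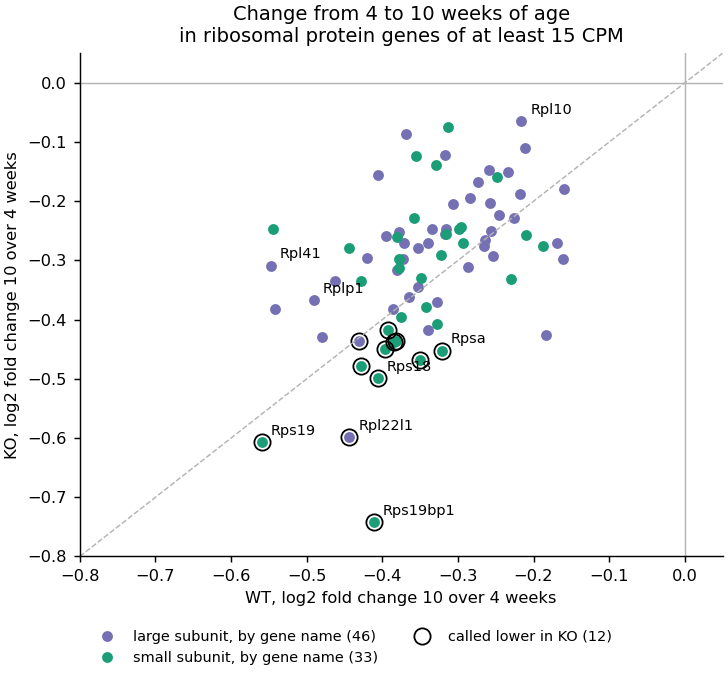
Log2 fold change from 4 to 10 weeks of age in WT (horizontal) and in KO (vertical) for the 79 members of at least 15 CPM, coloured by subunit, with rings around the 12 members called lower in KO and a dashed line of equal change. All points lie below 0 on both axes, and the ringed genes, among them Rps19, Rpl22l1 and Rps19bp1, lie between -0.74 and -0.42 in KO.

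Other genes of the translation apparatus mostly had negative fitted changes at 10 weeks as well. Of all genes, 2.11% were called in either direction in WT, and 4.83% lower and 4.89% higher in KO. In KO the calls in the biogenesis, mitochondrial and initiation lists were near that share or below it. Fau and Gnb2l1 encode ribosomal proteins whose symbols the rule does not match. Fau changed by -0.29 in WT and -0.20 in KO and Gnb2l1 by -0.33 in both, and neither passed. Of 59 ribosome biogenesis genes, 5 fell in WT and 4 in KO, with medians of -0.26 and -0.23. Gar1, a snoRNP protein, was among the 5 (-1.01, adjusted p = 0.0373), and Nop2, an rRNA methyltransferase, among the 4 (-0.47, adjusted p = 0.0276). Of 76 mitochondrial ribosomal protein genes 0 passed in WT (9 at an unadjusted p under 0.05, where 2367 of all 12748 genes were) and 5 fell in KO. The medians were -0.18 and -0.24. Of 10 elongation genes, Eef2k, the kinase that inhibits elongation factor 2, fell in both genotypes (-0.68 in WT and -0.90 in KO). In KO Eef1d and Eef1g also fell and Eif5a2 rose. Of 39 initiation genes Eif4e, the cap-binding protein, fell in KO by 0.40 and 0 passed in WT. Among 27 tested genes of mTORC1, S6 kinase and TOP control, Mxd1 rose by 0.47 and Myc fell by 0.57 in KO, and 0 passed in WT.

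Markers of dividing cells and of red cells moved with age as well. Of 33 cell cycle genes 29 fell in KO (median -1.11) and 0 in WT (median -0.45, with all 33 negative). Their summed level was 3235 to 3594 CPM in KO and 2465 to 2659 CPM in WT at 4 weeks, and 1591 to 1960 CPM in KO and 1865 to 1997 CPM in WT at 10 weeks. Of 8 tested erythroid genes 5 fell in WT and 3 in KO. The summed level of the erythroid list was 1351 to 3179 CPM in WT and 359 to 660 CPM in KO at 4 weeks and 80.8 to 171 CPM in WT and 58.7 to 67.0 CPM in KO at 10 weeks. The globin genes Hba-a1 and Hbb-b1 were above 0 in every fresh group, at a mean of 19.8 and 3.08 CPM in KO at 10 weeks. Their part in the members' result was not tested. In bulk samples, fewer cells of a type and less RNA per cell cannot be told apart.

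Between genotypes no member passed at either age. At 4 weeks 77 of 84 fitted changes were negative, with a median of -0.11 (0.927-fold) against -0.01 for all genes. KO libraries lay below WT libraries without overlap for 62 members, where 24.6% of all genes did. The test called 0 of 84 members (1 at an unadjusted p under 0.05, and 3 with only the 4-week groups in the fit), where 0.667% of all genes were called. An unadjusted p under 0.05 was found for 1525 of all 12748 genes. Rpl36a had the smallest p. It was at 144 and 146 CPM in WT and 110.5 and 117 CPM in KO (log2 fold change -0.35 ± 0.11, adjusted p = 0.235). Rpl26 followed at -1.37 on few counts, and Rps23, a decoding centre protein, at -0.23. Rps2, Rpsa and Rps6 changed by 0.07, 0.02 and -0.02, so the members did not all share the direction. At this age the cell cycle genes went the other way, with 32 of 33 positive, a median of 0.54 and 0 called. Of 8 erythroid genes all were negative (median -2.01) and 1 fell, Alas2 (-2.13), with the summed levels given above, and their part in the members' result was not tested.

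At 10 weeks the median was -0.08 (0.949-fold), with 69 of 84 negative. KO lay below WT without overlap for 21 members, where 20.9% of all genes did. The test called 0 of 84 members (0 also at an unadjusted p under 0.05 and 0 by DESeq2), where 0.11% of all genes were called. An unadjusted p under 0.05 was found for 1244 of all 12748 genes. Rpl37 had the smallest p, with 138 and 190 CPM in WT and 123 and 141 CPM in KO, overlapping groups and an adjusted p of 0.597. Rps15 (-0.22) and Rpl22 (-0.22) came next. The sign rested on the labels: with the libraries in conflict exchanged the median became 0.12, and the changes of Rpl37, Rps15 and Rpl22 became 0.34, 0.15 and 0.21. The exchange would label WT replicate 2 as KO, though its Vdr level was the highest of all libraries (127 CPM). Vdr thus goes against the exchange as well. By the labels as given, the median differed between runs of titles. It was -0.01 in the 10 run, with the library whose Vdr level goes against its label, and -0.15 in the 58 run.

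Over both ages together the median was -0.10, with 75 of 84 negative and 0 of 84 called (3 at an unadjusted p under 0.05, 0 by DESeq2), where 0.996% of all genes were called. An unadjusted p under 0.05 was found for 1668 of all 12748 genes. Rpl36a (-0.21, adjusted p = 0.282), Rps15 and Rpl23a had the smallest p. The 4 KO libraries overlapped with the 4 WT libraries for every member. Each of these sets holds both ages, and nearly all members differed by age, so this overlap does not bear on genotype. Markers of other cells moved with genotype as well. Of 11 tested dendritic cell markers 10 were negative at each age and over both (median -1.28 over both), and 3 fell over both ages, Fscn1, Ccl22 and Itgae. The summed level of the dendritic list was 42.1 to 119 CPM in WT and 24.6 to 40.8 CPM in KO at 4 weeks, with Cd209a at 0 in KO and Siglech at 0 in WT, and 77.8 to 93.6 CPM in WT and 36.3 to 39.3 CPM in KO at 10 weeks. Of 8 erythroid genes all were negative over both ages and 2 fell, Hbb-b1 and Alas2. Of 12 monocyte and interstitial macrophage markers 1 fell, C1qb. Of 22 alveolar macrophage markers 13 were positive and 9 negative over both ages, and 1 fell, Fabp1. At 4 weeks alone Marco rose in KO by 2.25. Of 20 lung epithelial markers 15 were positive and 5 negative over both ages (median 0.88), with 0 called. At 10 weeks alone Ager rose in KO by 2.37. Their part in the members' result was not tested. The interaction of genotype and age had a median of 0.05, and the smallest p belonged to the low genes Rpl39l, Rpl3l and Rpl26.

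Vitamin D3 for 24 h gave a fitted increase in 78 of 84 members, with a median log2 fold change of 0.15 (1.11-fold) against 0 for all genes. Of the 84 members 6 had an unadjusted p under 0.05, where 2991 of all 12748 genes did. By the adjusted test 1 passed, Rpl14, a large-subunit protein, where 5% of all genes were called higher. It stood at 279 and 354 CPM without and 441 and 393 CPM with vitamin D3, without overlap, and rose by 0.40 ± 0.12 (adjusted p = 0.0489). The call was lost without replicate 1 of either group (adjusted p = 0.318 without the treated and 0.289 without the untreated library), with only the culture groups in the fit (0.226) and under other scalings (0.0512 and 0.0562). Treated libraries lay above untreated ones without overlap for 17 members, where 24.2% of all genes did. Rps19bp1 was the next by p, at 15.8 and 20.4 CPM without and 24.5 and 23.1 CPM with vitamin D3 (0.40, adjusted p = 0.117).

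The sign of the vitamin D3 difference changed between the pairs formed by run of titles. Both libraries of the 10 run carry the source name WT1. In the 58 run the untreated library is named WT2 and the treated one WT3. Run of titles and a shared source name therefore cannot be told apart here. In the 10 run the treated library exceeded the untreated one by a median of 0.35 with 80 of 84 members higher. In the 58 run the median was -0.04, with 65 of 84 lower. The untreated replicates themselves differed by a median of 0.29, with 80 of 84 members higher in replicate 2, which is more than the fitted effect of treatment. Rps2, for example, was at 874 and 1107 CPM without and 1100.5 and 1083 CPM with vitamin D3, so that only the untreated replicate 1 stood apart. Rps6 went up by 0.41 in the 10 run and 0.07 in the 58 run.

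**Figure D4:**
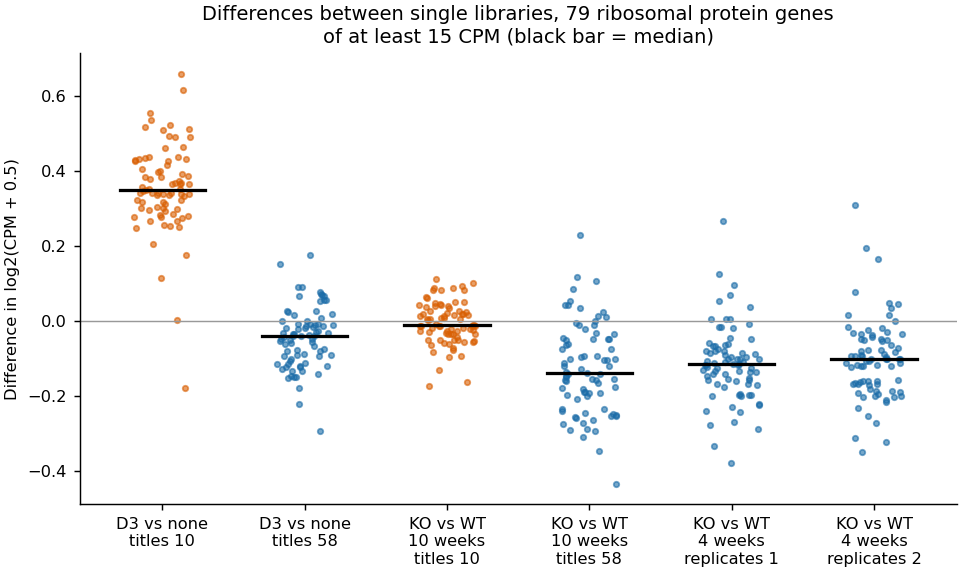
Difference in log2(CPM + 0.5) between single libraries for the 79 members of at least 15 CPM (points, with the median as a black bar), for vitamin D3 against none and KO against WT at 10 weeks within each run of library titles, and for KO against WT at 4 weeks by replicate number. The vitamin D3 points lie mostly above 0 in the 10 run and around 0 in the 58 run, and both 4-week pairs lie mostly below 0.

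Genes that build ribosomes were also called under vitamin D3, where 5% of all genes were called higher and 718 of 12748 lower. Of 59 ribosome biogenesis genes 14 rose and none fell, with a median of 0.29. Nop16 rose by 0.81 and Mrto4, a factor that precedes the stalk protein on the maturing subunit, by 0.75. Polr1a, the largest subunit of RNA polymerase I, rose by 0.76. Of 39 initiation genes 7 rose, with Pabpc1, the poly(A)-binding protein and itself a TOP message, at 1.08 ± 0.10 (adjusted p = 6.47e-05) and Eif4e at 0.45. Eef2k rose by 1.29. In the list of mTORC1, S6 kinase and TOP control, Rps6ka2 rose by 1.75, and Rps6ka5 fell by 0.75 and Rps6ka1 by 0.42. These Rps6ka genes do not encode the S6 kinases that mTORC1 drives. Of 76 mitochondrial ribosomal protein genes 1 rose, Mrpl12. Of 33 cell cycle genes 1 rose, Mcm5. Both of these counts lie below the share of all genes called higher. Of 12 tested monocyte and interstitial macrophage markers 2 fell, and the summed level of that list was 612 to 1001 CPM without and 385 to 399.6 CPM with vitamin D3. Its part in the members' result was not tested.

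Culture was set beside fresh cells of both ages, because the age of the cultured cells' donors is not labelled. These comparisons share the untreated culture libraries, and culture was confounded with all else that separates cultured from fresh cells. Against fresh WT cells of 10 weeks, 14 members rose and 2 fell, where 21.2% of all genes were called higher and 21.2% lower, with a median of 0.12. Against 4 weeks, 3 rose and 22 fell, where 20.1% were called higher and 19.5% lower, with a median of -0.22. The signs depend on scaling: with total counts in place of TMM scaling the median over all genes moved to -0.31 against 10 weeks and -0.30 against 4 weeks, and that of the members to -0.17 (2 higher, 18 lower) and -0.51 (1 higher, 66 lower). The share of all genes called with total counts is not given here, so these counts cannot be set against a background. Against 10 weeks the median was also negative without untreated replicate 2 (-0.03).

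Rps9, an early-binding protein of the small subunit, fell against both ages. It was at 463 and 529 CPM in untreated culture, 565 and 644 CPM in fresh cells of 10 weeks and 738 and 743 CPM at 4 weeks, without overlap. It fell by 0.28 ± 0.11 against 10 weeks (adjusted p = 0.0478) and by 0.58 ± 0.11 against 4 weeks (adjusted p = 0.00112). The call against 10 weeks was lost without untreated replicate 1 (adjusted p = 0.237) or without WT replicate 2 (0.295). With vitamin D3 it was at 524 and 500.4 CPM, within the range of the untreated libraries.

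Rpl22l1, a paralog, and Rps4y2, without a protein-coding entry in the annotation used, rose against both ages. Rpl22l1 was at 42.1 and 57.7 CPM in untreated culture, above the 28.4 and 27.1 CPM at 10 weeks and the 37.0 and 38.5 CPM at 4 weeks. It rose by 0.84 ± 0.15 against 10 weeks (adjusted p = 0.000791) and by 0.40 ± 0.15 against 4 weeks (adjusted p = 0.0473), the second being lost in several alternatives (0.404 without untreated replicate 2 and 0.556 with total counts). Rpl22 went the other way in sign, with -0.06 and -0.23, and passed in neither. Rps4y2 was at 69.3 and 65.9 CPM against 50.6 and 47.5 CPM at 10 weeks and 57.1 and 54.7 CPM at 4 weeks, and rose by 0.46 and 0.28, the latter becoming -0.01 with total counts. Its partner Rps4x, the X-linked core gene, changed by 0.04 and -0.21.

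Against 10 weeks the other members called higher included Rps19bp1 (0.75), Rpl41 (0.61), Rpl38 (0.52), Rpl36al (0.49), Rps27l (0.46), Rps25, which is needed for some internal ribosome entry (0.46), and Rps2 (0.45). Rpl30 had the largest fitted change (1.29, adjusted p = 0.0480) on 7.22 and 25.7 CPM in culture against 4.92 and 8.63 CPM at 10 weeks. Its groups overlapped. Rpl38, known for a role in the translation of Hox messages, was at 136 and 172 CPM in culture and 99.6 and 115 CPM at 10 weeks. All 14 had positive fitted changes against 4 weeks too, most of them near 0 (Rpl41 0.06, Rps27l 0.04, Rpl12 0.004).

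Against 4 weeks the members that fell included Rps9, Rps18 (0.54), Rpl32 (0.54), Rps7 (0.49) and Rplp0 (0.48). Rplp0 was at 807 and 924 CPM in culture and 1189 and 1231 CPM at 4 weeks. Rps6 fell by 0.34, and Rpl39l, on 3.34 and 4.70 CPM against 1.54 and 0.483 CPM, rose by 2.03 (adjusted p = 0.0296). Of the 22 members that fell, 17 also had negative fitted changes against 10 weeks. With vitamin D3 in the medium, 30 members were higher and 2 lower than at 10 weeks (25.4% and 25.6% of all genes), and 4 higher and 9 lower than at 4 weeks (23.7% and 23.2%). The counts against untreated culture moved with single libraries, and the share of all genes called in those fits is not given here. Against 10 weeks there were 25 calls without untreated replicate 1, 5 without untreated replicate 2 and 5 without WT replicate 1. Against 4 weeks there were 9 without untreated replicate 1, 12 without WT replicate 1 and 9 without WT replicate 2.

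**Figure D5:**
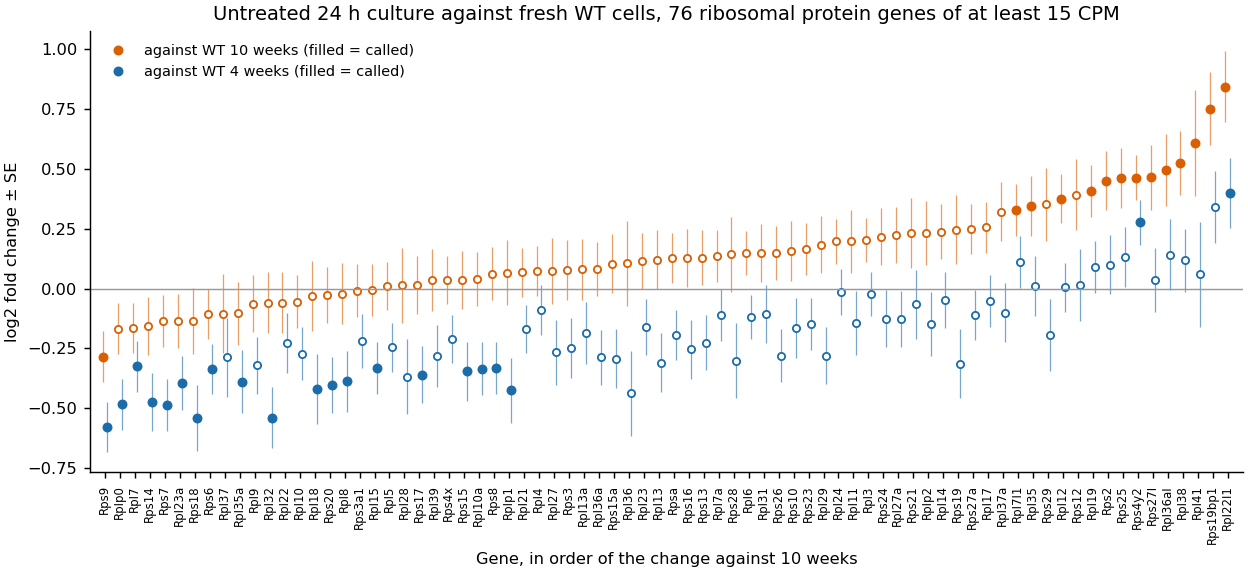
Log2 fold change with SE of untreated 24 h culture against fresh WT cells of 10 weeks (orange) and of 4 weeks (blue) for 76 of the 79 members of at least 15 CPM, in order of the change against 10 weeks, with filled points for members past the adjusted test. Rps9 at the left is filled below 0 and Rps4y2 and Rpl22l1 at the right are filled above 0 in both comparisons under TMM scaling; with total counts the 4-week value of Rps4y2 is -0.01 and most members lie below 0.

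Related lists were read against the same background of 21.2% of all genes called higher and 21.2% lower against 10 weeks, and 20.1% and 19.5% against 4 weeks. All values of these lists are under TMM scaling. The lists were not examined with total counts, which lowered the median over all genes. Of 76 mitochondrial ribosomal protein genes 28 rose and 1 fell against 10 weeks (median 0.33), with Mrpl41 at 1.29. Against 4 weeks 16 rose, a share close to that of all genes, and 1 fell (median 0.11). Of 59 ribosome biogenesis genes 14 rose and 4 fell against 10 weeks (median 0.16), and 4 rose and 12 fell against 4 weeks (median -0.14), under TMM scaling. Gnl3, a nucleolar GTPase, rose by 1.06 against 10 weeks, and Polr1e, a subunit of RNA polymerase I, fell by 1.18 against 4 weeks. Of 39 initiation genes 14 rose and 1 fell against 10 weeks, with the helicase gene Eif4a1 at 1.12 and Eif1a at 1.16, and 12 rose and 2 fell against 4 weeks. Eef2, which moves the ribosome along the message, fell by 0.45 against 10 weeks and 0.58 against 4 weeks. Of 33 cell cycle genes 30 fell against 10 weeks and 31 against 4 weeks, and their summed level was 1056 to 1073 CPM in untreated culture. Of 20 lung epithelial markers 10 fell and 1 rose against 10 weeks, and their sum went from 917 to 1032 CPM to 219 to 235 CPM. Most of the sum in fresh cells came from Krt19, Epcam, Abca3 and Cdh1, so it mainly follows a few genes. Krt19 averaged 529 CPM at 10 weeks and 38.8 CPM in untreated culture, and Abca3 145 and 143 CPM. The surfactant gene Sftpc was far lower, at 12.2 and 0.368 CPM. Of 11 dendritic cell markers 7 fell against 10 weeks, and their summed level was 36.4 to 41.7 CPM in untreated culture. Of 22 alveolar macrophage markers 9 rose and 9 fell against 10 weeks, and 9 rose and 8 fell against 4 weeks. The part of other cell types in the members' result was not tested.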

How the data were processed

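RNA extraction used Qiagen's RNeasy Micro kit and library preparation the KAPA mRNA HyperPrep kit, per the labels' protocols. The authors deposited raw counts per gene, and a table of log2 values of normalised expression, used here only to find the members. TopHat2, edgeR and the build mm9 were used, per the submitters' processing notes. The sources used here do not give their versions, how reads were counted, the strand used, or what was done with reads that fit several genes. Columns were matched to samples by library title, and groups were taken from source names.

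Counts were tested with edgeR 4.0.16 (R 4.3.3) by its quasi-likelihood F test, with TMM scaling, filterByExpr (minimum count 10, minimum total 15), all 12 libraries in 1 fit with 6 residual degrees of freedom, and Benjamini-Hochberg adjustment over 12748 genes at 0.05. The code was tested on simulated data. There were 9 contrasts. CPM are TMM-scaled, SE belongs to the log2 fold change, and SD is over 2 libraries. Total counts were 10409572 to 23233674. Coding lengths came from the GENCODE annotation by symbol for 83 members. Alternatives were DESeq2 1.42.0, other scalings and filters, fewer groups, a replicate block, the run of titles, the label exchange and leaving out each library. The members and lists were chosen with earlier results of these data known. Named genes were, in each contrast, up to 8 called members per direction by size or else the 3 with the smallest p, the 6 highest by CPM, stalk genes, Rpsa, Rps6, Rps27a, paralogs with partners, Rps19bp1, and up to 3 called genes of each list by p; others were chosen after their values were seen. A few members are not reported here by name and stay in the counts and medians.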

Additional observations from a re-analysis of the deposited data

Results flagged for a closer look

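For a pair of members the KO and WT libraries separated without overlap in opposite directions at the different ages. The share of all genes that did so is not given. Separation is common with 2 libraries a group: KO lay lower for 20.9% of all genes at 10 weeks and 24.6% at 4 weeks. The pair is therefore listed as a description and not as a result about these members. Rpl24, a large-subunit protein, had a log2 fold change of KO over WT of 0.04 at 10 weeks and -0.06 at 4 weeks, and the interaction was 0.10 (adjusted p = 0.891, edgeR quasi-likelihood F test). Rpl3l, the low paralog of Rpl3, had -0.58 at 10 weeks and 0.60 at 4 weeks, and the interaction was -1.19 (adjusted p = 0.577) on levels of 1.26 to 3.80 CPM in fresh cells. The difference between the ages was tested by that interaction and passed in neither gene.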

How the results depend on the processing

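The median age change was negative in all fits run (WT -0.45 to -0.25, KO -0.33 to -0.18), the median KO difference at 4 weeks was negative in all (-0.14 to -0.09), and the vitamin D3 median was positive in all (0.02 to 0.31). Counts of called members moved more, and they are given here without the share of all genes called in the same fit. For age in KO (12) there were 26 with DESeq2, 26 without a filter on low counts, 26 with only the groups compared, 7 with the run of titles as a term, 7 with total counts, 2 with the label exchange, and 0 to 1 without single libraries. For age in WT (0) there were 21 with DESeq2, 21 without a filter, 21 with the exchange and 12 with only the groups compared. The KO difference at 4 weeks (0) had 1 call without a filter and 3 with only its groups, and the interaction (0) had 1 without a filter. Vitamin D3 (1) had 0 with DESeq2 size factors, total counts, only its groups or the exchange, and 0 to 1 without single libraries. Untreated culture against 10 weeks (16) had 26 with the exchange, 5 with only its groups and 5 to 25 without single libraries. Against 4 weeks (25) it had 10 with only its groups, 67 with total counts and 9 to 37 without single libraries. The exchange reversed Rpl22 (0.21), Rpl37 (0.34) and Rps15 (0.15) at 10 weeks and Rpl39l in the interaction (0.40), and total counts reversed Rps4y2 in culture against 4 weeks (-0.0099). The cause was not tested, apart from the fewer libraries left in some fits. Replicate numbers gave no pairing by the labels: deviations of same-numbered libraries correlated at 0.15 at 10 weeks, -0.16 at 4 weeks and, by run of titles, 0.33 in culture. With a replicate block 3 members were called for age in WT, 16 for age in KO, 1 for vitamin D3 and 17 and 28 for culture against 10 and 4 weeks. Of the values of named members, 528 kept direction and stayed either called or not called, 101 lost the call, 17 gained it and 5 reversed. The 528 include members not called in the main fit, which had no call to lose, so they do not measure how stable the calls were. With 2 libraries a group, small changes such as those between genotypes could not be resolved.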
